A study of Mus musculus with 3 samples.

Results

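The genes described here are 4 chemokines that attract monocytes, Ccl2, Ccl7, Ccl8 and Ccl12, and Ccr2, the receptor through which monocytes follow them. These 5 genes were chosen by name, and all 5 were among the 31053 genes of the RNA count table. Their levels are given over the 13 clusters that the authors assigned to 12421 cells, with the cells of clusters 2 (1796 cells) and 12 (134 cells) examined one by one.

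CC chemokines are small secreted proteins with 2 neighbouring cysteines, and they draw leukocytes along concentration gradients. Ccl2, Ccl7 and Ccl12 act on Ccr2, the receptor that classical monocytes need to leave the bone marrow and enter inflamed tissue. Ccl8 belongs to the same gene cluster, and in the mouse it has also been described as a ligand of Ccr8. Ccl12 is a mouse gene. In the brain, Ccl2 can be made by endothelium, astrocytes, microglia, infiltrating macrophages and tumour cells, while resident microglia carry little or no Ccr2.

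The cells came from brains of female C57BL/6 mice aged 2 to 3 months, either naive or bearing metastases of E0771, a mouse mammary carcinoma line, about 2 weeks after its injection into the carotid artery. The mice were perfused, the brains were digested with papain, and a Percoll gradient was used to enrich immune cells, so the share of a cell type is that of the suspension. Each brain was stained with 6 surface antibodies (against CD3, CD4, CD11b, CD25, CD45 and CD86) and a hashing antibody of its own, and the brains were pooled into 1 10x Genomics 3′ run. The files hold 4 hashing antibodies, 2 naive and 2 with metastases, and they are called naive 1 and 2 and metastasis 1 and 2 here. Nothing beyond the hashing antibodies says how the brains were otherwise handled, so p-values measure the spread between these 4 suspensions only. The design text speaks of 6 pooled samples, of which the 4 are analysed here, and the labels name 1 brain hemisphere.

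The naive brains gave 572 and 315 cells with 1691221 and 694223 UMIs (unique molecular identifiers, which count captured RNA molecules). The brains with metastases gave 5360 and 6174 cells with 45724262 and 57620835 UMIs. No barcode occurred more than once, and because all 4 brains shared 1 run, free RNA was common to all droplets. Clusters 0, 1, 3, 4 and 5, named the large clusters here, carried Krt8, a keratin gene of epithelial and carcinoma cells, and held 3946 and 4360 cells with metastases but 79 and 23 naive cells. Cluster 2 was led by the myeloid genes Lyz2, Fcer1g and Ctss, and all 11 monocyte markers had UMIs in it, at 5723 and 3872 CPM (UMIs of a gene or list per 1000000 UMIs of the same cells) with metastases. Cluster 12 had 4 neutrophil markers and 3 microglia markers among its 10 leading genes and therefore goes by its number. Its microglia markers summed to 13467 and 12389 CPM in naive brains against 6499 and 3638 CPM with metastases. Its neutrophil markers summed to 603 and 32673 CPM in naive brains against 53.1 and 91.7 CPM with metastases, so naive 2 stood apart. In cluster 2 the neutrophil markers also differed between the brains with metastases, at 1344 and 159 CPM. Cluster 6 was endothelial-like, clusters 7 and 9 choroid plexus-like and cluster 11 mural-like, each by 3 or 4 markers among the 10 leading genes. Clusters 8 and 10 stayed unnamed, and a doublet caller marked 41.3% of the cells of cluster 10.

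The 4 chemokine genes lie side by side on chromosome 11 of GRCm38.p6, the assembly that mm10 stands for. Ccl2 spans chr11:82035577-82037452, Ccl7 chr11:82045712-82047525, Ccl12 chr11:82101845-82103399 and Ccl8 chr11:82115185-82116799, a stretch of 81.2 kb that also holds Ccl11, a gene outside the set. Ccr2 lies on chromosome 9, at chr9:124101918-124109140. Ccl12 and Ccl8 are neighbours at 1 end of this stretch, and in each brain with metastases they had larger shares of their UMIs in cluster 2 than Ccl2 or Ccl7. The 250 bases before their start sites, from the RefSeq promoter table for that build, are shown for this reason, with the plus strand read 5′ to 3′ and the TATA box motif in capitals. The Ccl8 window is chr11:82114935-82115184 and the Ccl12 window chr11:82101595-82101844.
Ccl8: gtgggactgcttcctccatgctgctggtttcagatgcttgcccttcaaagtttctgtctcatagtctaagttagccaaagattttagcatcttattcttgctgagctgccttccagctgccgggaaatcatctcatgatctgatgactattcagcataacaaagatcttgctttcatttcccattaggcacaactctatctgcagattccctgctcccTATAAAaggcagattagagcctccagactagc
Ccl12: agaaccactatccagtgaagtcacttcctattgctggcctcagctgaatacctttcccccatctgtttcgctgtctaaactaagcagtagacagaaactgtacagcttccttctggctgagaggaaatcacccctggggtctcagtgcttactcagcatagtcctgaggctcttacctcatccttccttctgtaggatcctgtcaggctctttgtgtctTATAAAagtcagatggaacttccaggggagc
The motif TATAAA began 32 bases before the start of Ccl8 and 31 bases before that of Ccl12, and 12.4% of 32851 promoters of the table held it on either strand. The interferon response core (TTTC, any 2 bases, TTTC, in 2.98% of promoters), the NF-kB motif (GGG, any 5 bases, CC, in 45.8%) and the AP-1 motif TGANTCA (in 6.75%) were searched on both strands and did not occur in either window. The longest runs of letters that both windows shared were 3 runs of 8 bases. They were ggaaatca, which began 128 bases before each start, tcagcata, at 100 and 98 bases before the starts of Ccl8 and Ccl12, and tataaaag, which holds the TATA motif. Ccl2 and Ccl7 are named here without a promoter sequence.

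Over all cells of a brain, Ccl2 stood at 107.0 and 74.9 CPM in naive mice, against 168 and 153 CPM with metastases. Ccl12 went the other way, at 103 and 72.0 CPM in the naive brains against 18.5 and 19.6 CPM with metastases. Ccr2 stood at 8.87 and 12.96 CPM in the naive brains, against 19.9 and 17.0 CPM with metastases. Ccl7 stood at 44.4 and 31.7 CPM against 39.6 and 57.8 CPM, and Ccl8 at 4.14 and 5.76 CPM against 1.64 and 9.11 CPM. These whole-brain levels mix clusters whose sizes differed strongly between the conditions, so they are described and not tested.

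**Figure D1:**
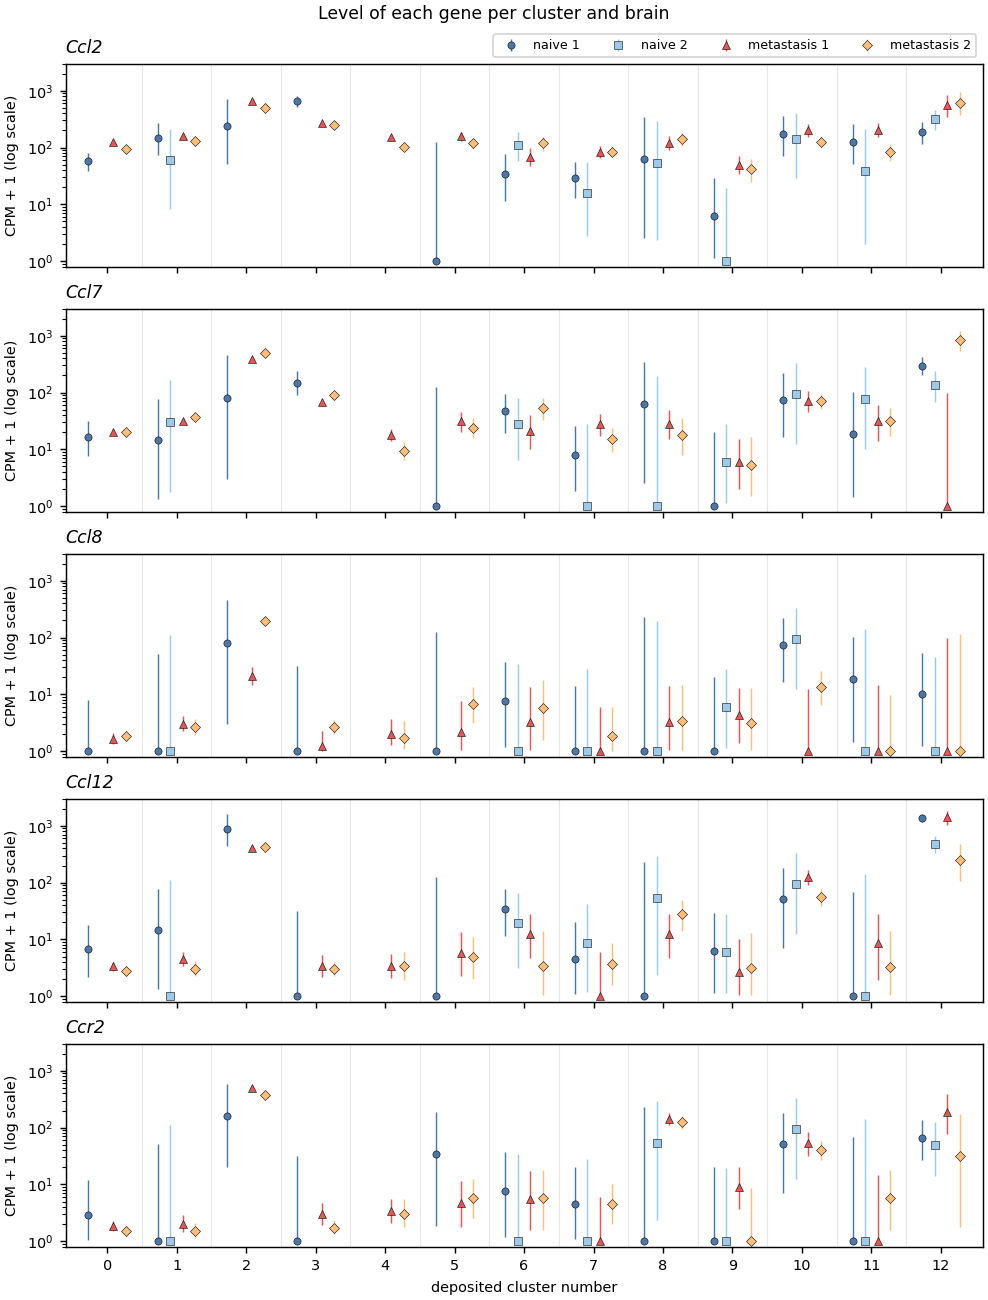
Level of each gene (CPM + 1, log axis) in each deposited cluster, with 1 point per brain and exact Poisson 95% intervals of the count, for brains with at least 10 cells in the cluster. Ccl8 and Ccr2 were highest in cluster 2 with metastases, Ccl12 was high in clusters 2 and 12, and Ccl2 was above 40 CPM in every cluster of the brains with metastases.

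Ccl2, the main ligand of Ccr2, was the most widely spread of the 4 chemokines. In cluster 2 it reached 657 and 497 CPM in metastasis 1 and 2, and in cluster 12 it reached 557 and 611 CPM. The ranges of these clusters overlapped, and both lay above cluster 3, a large cluster led by the interferon genes Usp18, Isg15 and Ifit1, at 273 and 245 CPM. Cluster 3 in turn lay above all other clusters in both brains with metastases, and below it each neighbour in the order overlapped the next down to cluster 7. The other large clusters held Ccl2 between 95.3 CPM (cluster 0, metastasis 2) and 162 CPM (cluster 1, metastasis 1). The lowest level in both brains was that of the choroid plexus-like cluster 9, at 49.0 and 40.3 CPM. Clusters were formed with these genes in the data, so no level is tested between clusters.

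Although cluster 2 had the higher level, most Ccl2 molecules with metastases came from the large clusters. The large clusters held 82.8% and 83.0% of the 7665 and 8802 Ccl2 UMIs of these brains, and cluster 2 held 13.1% and 13%. In naive 1, 71.3% of 181 UMIs came from the large clusters, 60 of them from 1 cell of cluster 3. In naive 2, 50% of 52 UMIs came from cluster 12 and 9.62% from the large clusters.

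Ccl7, which binds Ccr2 and further CC receptors, was highest by mean in cluster 2. It reached 397 and 494 CPM in cluster 2 with metastases, against 68.3 and 91.0 CPM in cluster 3 and 8.52 to 35.5 CPM in the other large clusters. Cluster 12 cannot be placed in this order, because it held no Ccl7 UMI in metastasis 1 (which allows up to 79.6 CPM) and 825 CPM in metastasis 2 from 27 UMIs of 1 cell. The large clusters supplied 62.4% and 61.9% of the 1809 and 3328 Ccl7 UMIs, and cluster 2 supplied 33.5% and 34.2%. In the naive brains, with 75 and 22 UMIs, cluster 12 supplied 42.7% and 50%.

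Ccl8 had the fewest UMIs of the 4 ligands in each brain and, in cluster 2, differed most between the brains with metastases. That cluster held 20.3 CPM in metastasis 1 and 193 CPM in metastasis 2, and no other cluster exceeded 12.57 CPM in either brain. Metastasis 2 had 525 Ccl8 UMIs, of which 84.8% lay in cluster 2, while metastasis 1 had 75, of which 41.3% lay in cluster 2 and 53.3% in the large clusters. Within cluster 2 of metastasis 2, 10 cells (0.941%) held 51.2% of the Ccl8 UMIs, and 1 cell held 53. With 2 brains this difference is a description.

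Ccl12 was the ligand of clusters 2 and 12. In cluster 2 it stood at 411 and 420.1 CPM with metastases, and in cluster 12 at 1406 and 245 CPM, so the clusters overlapped. Cluster 10, where called doublets were frequent, followed at 124 and 55.0 CPM. The large clusters together held 2.73 and 2.01 CPM. Cluster 2 supplied 74.3% and 85.7% of the 844 and 1129 Ccl12 UMIs of the brains with metastases, and the large clusters 13.2% and 9.03%. In the naive brains the source was cluster 12, with 85.6% of 174 UMIs and 78% of 50 UMIs.

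Ccr2, the receptor, was highest in cluster 2 with metastases, at 504 and 374 CPM. Cluster 8, a lymphoid and MHC class II cluster, came second by mean at 142 and 123 CPM and overlapped with cluster 12 at 186 and 30.6 CPM. Cluster 2 supplied 84.4% and 87.6% of the 911 and 982 Ccr2 UMIs of the brains with metastases, and cluster 8 supplied 6.81% and 5.19%. The large clusters together held 1.18 and 0.692 CPM. Cluster 12 of the naive brains held 64.9 and 48.6 CPM from 7 and 4 UMIs. With metastases, most receptor and most Ccl12 molecules thus came from cluster 2, while most Ccl2 and Ccl7 molecules came from the large clusters.

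**Figure D2:**
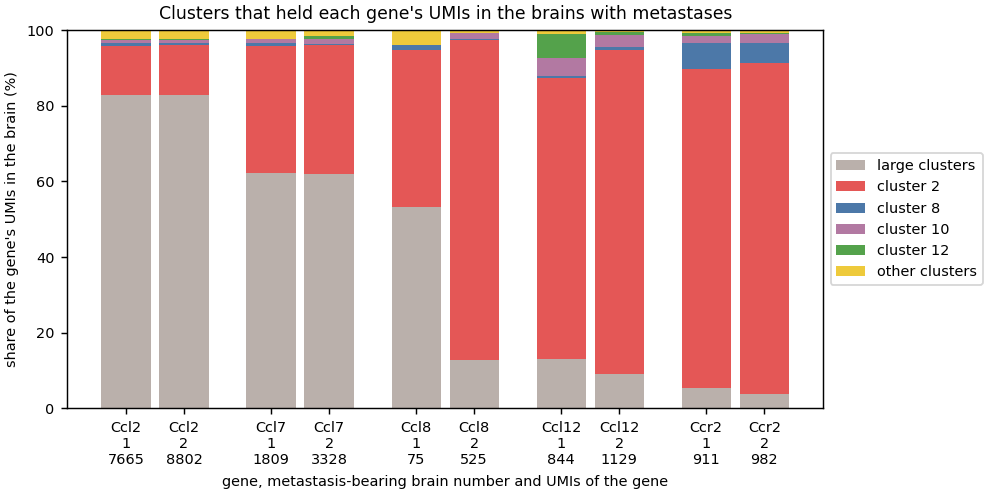
Share of each gene's UMIs (%) by cluster in each brain with metastases, with the number of UMIs of the gene under each bar. The large clusters (0, 1, 3, 4 and 5) held 82.8% and 83.0% of Ccl2, and cluster 2 held 84.4% and 87.6% of Ccr2.

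The share of cells with at least 1 UMI depends on depth, so it was also computed for cells thinned to 1000 UMIs. In cluster 2 with metastases, 33.3% and 28.9% of thinned cells had Ccl2, 16.9% and 25.1% had Ccl7, 1.44% and 7.03% had Ccl8, 18.8% and 21.6% had Ccl12, and 38.5% and 30.2% had Ccr2. Without thinning the Ccr2 shares were 54.7% of 718 cells and 42.7% of 1063 cells, and those of Ccl2 were 44.3% and 38.8%. In the choroid plexus-like cluster 9, where a leukocyte receptor such as Ccr2 marks background, 2.24% and 2.18% of thinned cells had Ccl2 and 0.869% and 0% had Ccr2. Median depth was 1548 and 1466 UMIs per cell in cluster 2 and 5371 and 5338 in cluster 9. The thinned share of cluster 2 was above that of cluster 9 for Ccl2, Ccl7, Ccl12 and Ccr2 in both brains.

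Within the large clusters, Ccl2 and Ccl7 were concentrated in few cells, and Ccl8, Ccl12 and Ccr2 were too low for this to be judged. Ccl2 was at 0 in 51.8% and 57.4% of these cells, against 20.02% and 18.73% if its UMIs had been spread evenly over cells regardless of depth (a Poisson distribution). Cells with at least 10 Ccl2 UMIs made up 3.12% and 3.14% of the large clusters (123 and 137 cells) and held 34.4% and 48.0% of their Ccl2 UMIs, with 77 (in cluster 4) and 149 (in cluster 3) in the highest cells. Ccl7 was at 0 in 84.5% and 82.2% of cells against 75.1% and 62.4% for an even spread, and its highest cell, in cluster 3, held 160 UMIs. For Ccl12, at 0.0281 and 0.0234 UMIs per cell, the measured shares of 97.2% and 97.7% were within 0.1 percentage points of the even spread. Ccl8 and Ccr2 likewise had 99.0% and 98.5%, and 98.8% and 99.2%, of cells at 0. At the levels of Ccl8, Ccl12 and Ccr2 an uneven spread would be hard to see in these shares. No cell of the large clusters with metastases held more than 2 UMIs of any of them.

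Of the large clusters, cluster 3 had the largest share of cells with at least 10 Ccl2 UMIs. There, 10.6% and 6.41% of cells had at least 10 Ccl2 UMIs and held 56.6% and 62.6% of the Ccl2 of the cluster. The ratio of Ccl2 to Krt8 UMIs was 0.599 and 0.327 in cluster 3 and 8.29 and 5.08 in cluster 2. In the 10 clusters 0, 1 and 4 to 11 it ran from 0.252 to 0.495 in metastasis 1 and from 0.123 to 0.396 in metastasis 2. The ratio of Ccl7 to Krt8 was 5.01 and 5.06 in cluster 2, and 0.0411 to 0.158 and 0.0152 to 0.157 in those 10 clusters. The ratio of Ccl2 to Krt8 was 0.252 and 0.357 in cluster 6, 0.259 and 0.156 in cluster 7, 0.411 and 0.268 in cluster 9 and 0.458 and 0.123 in cluster 11. Large clusters ran from 0.293 to 0.599 in metastasis 1 and from 0.145 to 0.327 in metastasis 2. Cluster 9 lay within their range in both brains, while cluster 6 lay below it in metastasis 1 and above it in metastasis 2. In cluster 6, 1 cell held 13 of the 30 Ccl2 UMIs of metastasis 1 and 1 cell held 31 of the 50 of metastasis 2. The part of Krt8-bearing cells' RNA in the Ccl2 of these clusters was not tested.

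In cluster 2 all 5 genes left more cells at 0 than an even spread would, by margins that differed between genes. Ccl2 was at 0 in 55.7% and 61.2% of cells against 24.7% and 34.1%, and Ccl12 in 76.5% and 71.7% against 41.8% and 40.3%. Ccr2 was at 0 in 45.3% and 57.3% against 34.3% and 44.5%, and Ccl8 in 97.6% and 92.0% against 95.8% and 65.8%. No cell held more than 8 Ccr2 UMIs in metastasis 1 or 12 in metastasis 2. The highest cells of cluster 2 held 36 and 25 Ccl2 UMIs, 42 and 31 of Ccl7 and 23 and 28 of Ccl12.

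**Figure D3:**
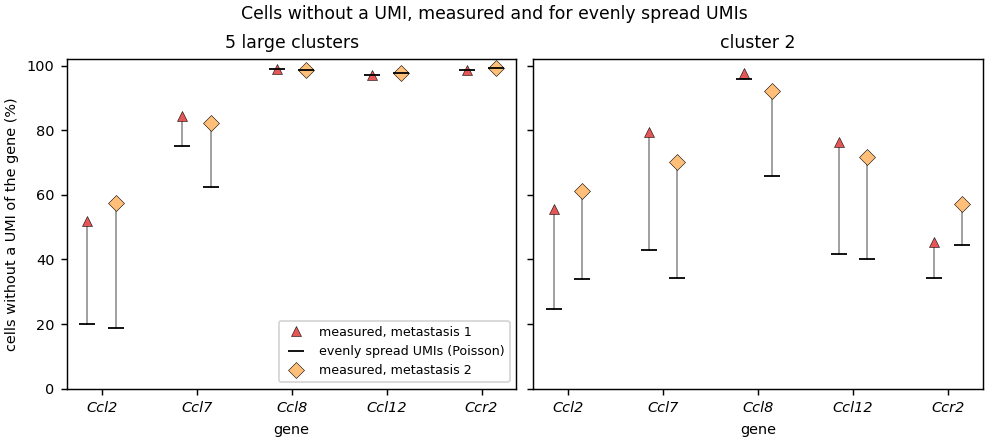
Share of cells without a UMI of each gene (%, markers) and the share for UMIs spread evenly over cells (black dashes) in the large clusters and in cluster 2 of the brains with metastases. The gap is wide for Ccl2 in both panels, and closed for Ccl8, Ccl12 and Ccr2 in the large clusters. The low levels of these genes there could hide an uneven spread.

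In single cells of cluster 2, Ccl2, Ccl7 and Ccl12 were found together more often than independent detection gives. Ccr2 was found with Ccl7, Ccl8 and Ccl12 less often in thinned cells, but by mean more often without thinning. The measure is the share of thinned cells with both genes divided by the product of the shares of each (521 and 742 cells), which is 1 where the genes fall independently. For Ccl2 with Ccl7 it was 1.71 and 1.74, for Ccl2 with Ccl12 1.62 and 1.56, and for Ccl7 with Ccl12 2.05 and 1.86. Pairs with Ccl8 were less alike between brains, at 1.22 and 2.18 for Ccl7, 1.03 and 1.49 for Ccl2 and 1.10 and 1.51 for Ccl12. Over the 6 pairs of ligands the 12 values ran from 1.03 to 2.18.

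With Ccr2, the ratio was 1.06 and 1.03 for Ccl2, 0.898 and 0.906 for Ccl7, 0.823 and 0.926 for Ccl12 and 0.650 and 0.732 for Ccl8. The 8 values ran from 0.650 to 1.06, and the 6 for Ccl7, Ccl8 and Ccl12 were all below 1. The values of Ccl2 with Ccr2 were near 1, as was Ccl2 with Ccl8 in metastasis 1. Without thinning the mean ratios with Ccr2 were above 1, at 1.18 for Ccl2, 1.13 for Ccl7, 1.14 for Ccl12 and 1.06 for Ccl8, where deep cells show more of each gene. In cluster 3, thinned Ccl2 and Ccl7 gave 2.36 and 2.87, an alternative added after seeing the data. Cluster 12 kept 17 and 9 thinned cells with metastases, too few for a ratio.

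**Figure D4:**
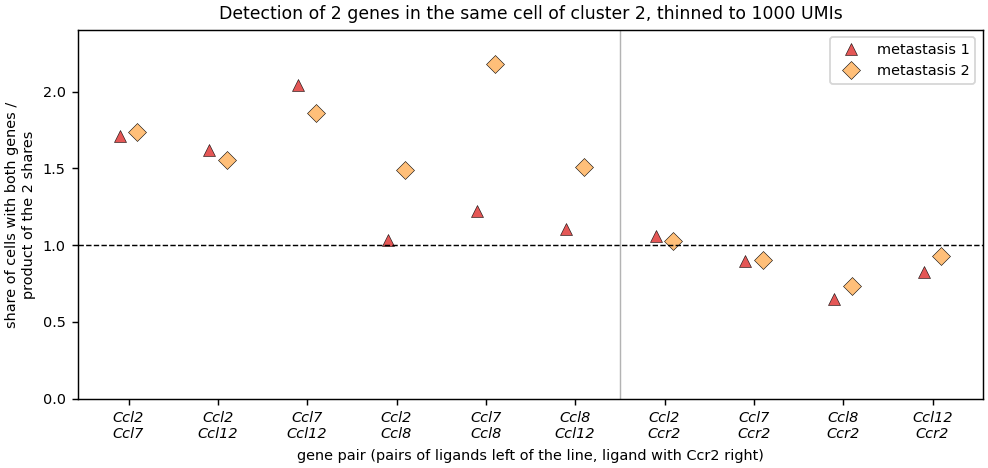
Share of thinned cells of cluster 2 with both genes of a pair, divided by the product of the shares of each, in each brain with metastases, with the dashed line at 1. Pairs of ligands ran from 1.03 to 2.18 and pairs of a ligand with Ccr2 from 0.650 to 1.06.

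Without thinning, 45.1% and 45.1% of cluster 2 cells had none of the 4 ligands, 28.4% and 22.9% had 1, 17.8% and 17.1% had 2, and 7.94% and 12.04% had 3. All 4 were found in 0.696% and 2.92% of cells. The median depth of cells with none was 1118 and 1062 UMIs and that of cells with 3 was 3549 and 2912 UMIs, so depth moved with the count, and its part in this count was not tested.

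Cells of cluster 2 with a ligand UMI also carried more CD11b tags, the integrin of myeloid cells. Cells with Ccl12 had a mean of 424 and 449 CD11b tags against 197 and 202 in cells without it. Cells with Ccr2 had 319 and 346 against 168 and 217. CD45 and CD86 tags were higher as well, and the same cells were deeper in RNA.

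The RNA around the members differed in the same cells. In cells with Ccl7, macrophage markers summed to 1459 and 1709 CPM against 816 and 1025 CPM in cells without it, and monocyte markers to 4566 and 3170 CPM against 6270 and 4430 CPM. In cells with Ccr2 the monocyte markers stood higher, at 6276 and 4311 CPM against 4689 and 3399 CPM. Macrophage markers stood at 1042 and 1235 CPM with Ccr2 against 985 and 1429 CPM without it, so the brains differed in direction. Cells with Ccl2, Ccl8 or Ccl12 had higher macrophage and lower monocyte marker levels than cells without the gene in both brains. Ccl7 thus went with macrophage markers, as the other ligands did, and Ccr2 with monocyte markers in both brains, as a description of these cells.

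Clusters 2 and 12 were divided into 11 sub-clusters without the use of any Ccl gene or of Ccr2. Sub-cluster 4, monocyte-like by 3 markers among its 10 leading genes (Hp, Chil3 and Ifitm6), had the highest mean Ccr2, at 769 and 741 CPM in 124 and 100 cells. It also had Ccl2, at 596 and 472 CPM, but little Ccl7 (38.4 and 86.6 CPM), Ccl12 (25.6 and 28.9 CPM) or Ccl8. Sub-cluster 4 therefore had receptor and Ccl2 but the lowest mean Ccl12 of the 11 sub-clusters. This did not hold for all cells rich in monocyte markers. These markers summed to 9877 and 11432 CPM in sub-cluster 4, and to 9856 and 9013 CPM in sub-cluster 6, which had the highest mean Ccl12.

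Sub-cluster 6, led by the interferon-induced genes Cxcl10, Ifit1 and Rsad2, had the highest mean Ccl2 and Ccl12. Ccl2 stood at 1062 and 1023 CPM and Ccl12 at 561 and 932 CPM, in 58 and 69 cells. Its Ccl7 was 203 CPM in metastasis 1 and 966 CPM in metastasis 2, it had no Ccl8 UMI, and its Ccr2 was 680 and 386 CPM. Sub-cluster 2, led by Cxcl9, Il18bp and Slfn4, carried all 4 ligands in both brains, as did sub-clusters 1, 4, 5, 8 and 9. Its Ccl2 stood at 803 and 704 CPM, its Ccl7 at 542 and 611 CPM, its Ccl12 at 681 and 612 CPM and its Ccl8 at 40.8 and 178 CPM. The highest mean Ccl7, 815 CPM, was that of sub-cluster 10, which had only 17 and 15 cells with metastases. Its 10 leading genes held 6 neutrophil markers, and neutrophil markers summed to 39447 and 3428 CPM. Choroid plexus markers were higher, at 63645 and 75937 CPM, so it goes by its number.

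Every other sub-cluster had less receptor than the monocyte-like sub-cluster 4 in both brains, sub-clusters 1 and 5 among them. Sub-cluster 1, led by Spp1, Acp5 and Ctsk and with macrophage markers at 1672 and 1768 CPM, held Ccr2 at 348 and 391 CPM, Ccl2 at 750.1 and 421 CPM, Ccl7 at 390 and 520 CPM and Ccl12 at 372 and 435 CPM. Sub-cluster 5, led by the MHC class II genes H2-Aa and H2-Eb1, held Ccr2 at 457 and 346 CPM and the highest mean Ccl8, at 16.3 and 556 CPM. The Ccl8 of metastasis 2 was thus densest in this sub-cluster, which had 58 cells in metastasis 1 and 138 in metastasis 2.

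Sub-cluster 7 was microglia-like, with 6 markers among its 10 leading genes, and was the one with many naive cells (61 and 25 naive, 24 and 14 with metastases). Its Ccl12 was 1346 and 596 CPM in naive brains against 458 and 634 CPM with metastases, so the groups overlapped. Its Ccl2 was 183 and 404 CPM in naive brains against 286 and 288 CPM with metastases. Ccl7 stood at 293 and 0 CPM in the naive brains and had no UMI with metastases. Ccr2 stood at 64.1 and 38.5 CPM in naive brains, from 7 and 2 UMIs, and at 343.5 and 230.5 CPM in the others, from 12 and 4 UMIs. Monocyte markers there stood at 916 and 212 CPM in naive brains against 3406 and 1038 CPM, and their part in this Ccr2 was not tested. At a resolution of 0.5 the microglia-like sub-cluster held 16 and 11 cells with metastases, with Ccr2 at 263 CPM and no UMI.

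**Figure D5:**
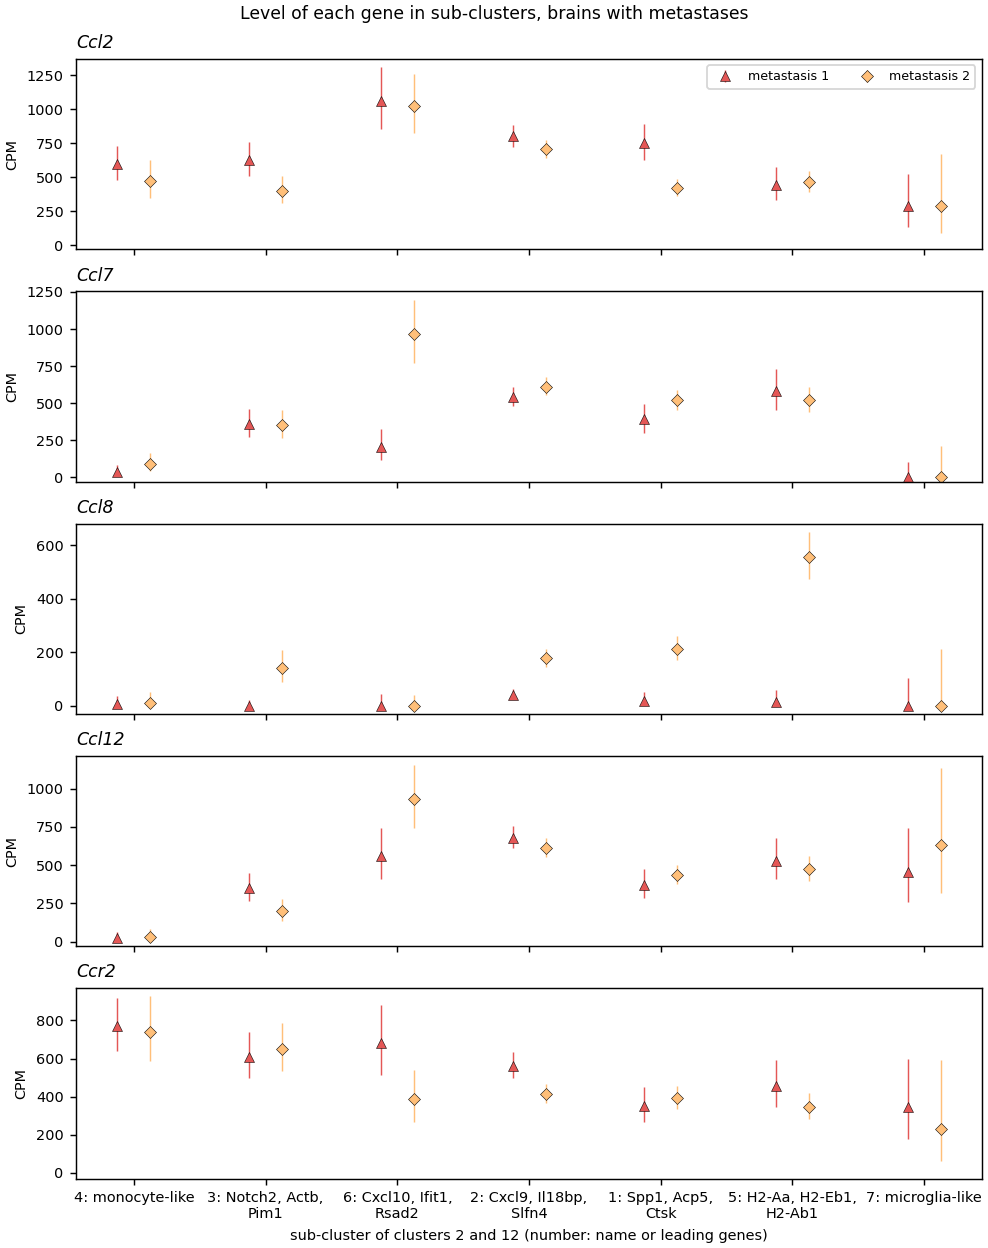
Level of each gene (CPM, with exact Poisson 95% intervals of the count) in 7 sub-clusters of clusters 2 and 12 for each brain with metastases. The monocyte-like sub-cluster 4 had Ccr2 at 769 and 741 CPM and Ccl12 at 25.6 and 28.9 CPM, and sub-cluster 6 had Ccl2 at 1062 and 1023 CPM.

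The effect of metastases on the 5 genes was tested within clusters, with UMIs summed per brain, in clusters with at least 20 cells in every brain (6, 7, 9 and 11). Ccl2 rose in the choroid plexus-like clusters 7 and 9, and no other member that was tested passed in the 4 clusters. The low-count filter left only Ccl2 to test in clusters 7, 9 and 11, and Ccl2 and Ccl7 in cluster 6. Ccl7 in cluster 7, with 2 and 0 UMIs in naive brains against 20 and 16 with metastases, was thus not tested. Cluster 2 could not be tested, with 10 and 5 naive cells. Those cells held 3 and 2 Ccl2 UMIs, 11 and 4 Ccl12 UMIs and 2 and 2 Ccr2 UMIs.

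In cluster 7, the brains held 8, 2, 63 and 93 Ccl2 UMIs (naive 1, naive 2, metastasis 1 and metastasis 2), or 28.0 and 14.9 CPM against 83.7 and 82.7 CPM. The groups did not overlap. The log2 fold change was 1.55 ± 0.41 (SE, n = 2 brains per condition), with an adjusted p of 0.0170 by edgeR's quasi-likelihood test. Of the 5963 genes tested there, 31.1% passed and 14.2% rose, so a rise in this cluster was common. Krt8 also rose in cluster 7, by a log2 fold change of 1.63 with an adjusted p of 0.00941. The median depth of its cells was 2054 and 1989 UMIs in naive brains against 3149 and 4910 UMIs, and the median mitochondrial share was 8.94% and 12.87% against 4.79% and 1.74%. Ttr, the leading choroid plexus gene, fell there (log2 fold change -1.66, adjusted p = 0.00822 by edgeR). The part of these in the rise of Ccl2 was not tested. Called doublets were 1 of 135 and 2 of 62 naive cells against 18 of 153 and 15 of 148, and without them the log2 fold change of Ccl2 was 1.57 (adjusted p = 0.0234). Over 8 alternatives the adjusted p of Ccl2 ran from 0.00167 to 0.0718, the highest by DESeq2, and without naive 2 it was 0.0578.

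In cluster 9, the brains held 1, 0, 30 and 19 Ccl2 UMIs, or 5.14 and 0 CPM against 49.0 and 40.3 CPM. Ccl2 thus passed the low-count filter there only through the brains with metastases. The ratio of the pooled counts was 17.9, with an exact counting interval of 3.07 to 723, and edgeR gave an adjusted p of 0.00512 (log2 fold change 3.91 ± 0.88, n = 2, a fitted value that depends on the prior count). Of 3473 genes tested, 4.29% passed and 3.83% rose. Over 5 alternatives the adjusted p ran from 0.000877 to 0.113, the highest without naive 2, and DESeq2 gave no adjusted p. In metastasis 1, 1 cell held 13 of the 30 UMIs, and Krt8 had a log2 fold change of 1.00 with an adjusted p of 0.0612. Among cells without a Krt8 UMI, an alternative added after seeing the data, Ccl2 was too rare to be tested in clusters 6, 7 and 9.

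In the endothelial-like cluster 6, Ccl2 stood at 32.9 and 109 CPM in naive brains against 68.0 and 118 CPM with metastases, which overlapped (log2 fold change 0.49 ± 0.51, adjusted p = 0.601 by edgeR, n = 2). Of the Ccl2 UMIs with metastases, 1 cell held 13 of 30 in metastasis 1 and 1 cell held 31 of 50 in metastasis 2. Ccl7 in cluster 6 had a log2 fold change of -0.07 ± 0.60 with an adjusted p of 0.959 by edgeR, and 7.58% of genes passed. In the mural-like cluster 11, Ccl2 stood at 126 and 38.4 CPM against 203 and 81.5 CPM, with a log2 fold change of 0.37 ± 0.69 and an adjusted p of 0.776, where 16.1% of genes passed. Krt8 rose in both clusters, with log2 fold changes of 1.25 and 2.26. The median depth of cluster 11 was 814 and 871 UMIs per cell in naive brains and 9974 and 10370 UMIs with metastases.

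With at least 10 cells per brain, clusters 1, 8, 10 and 12 could be tested too, and no member that was tested passed in any of them. The low-count filter kept Ccl2, Ccl7 and Ccl12 in clusters 1, 10 and 12, and Ccl2 and Ccr2 in cluster 8. The share of all genes that passed was 0.0619% in cluster 1, 0.682% in cluster 8, 2.44% in cluster 10 and 5.86% in cluster 12. The nearest outside cluster 12 was Ccr2 in cluster 8, with 0 and 1 UMIs in the naive brains against 62 and 51 (adjusted p = 0.336 by edgeR).

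Cluster 12 held the most naive cells among the clusters led by myeloid genes, with 60 and 33 naive cells against 26 and 15. Ccl2 stood at 185 and 316 CPM in naive brains against 557 and 611 CPM with metastases. The groups did not overlap, but the log2 fold change of 1.08 ± 0.41 did not pass (adjusted p = 0.108 by edgeR, n = 2; 0.101 to 0.737 over 10 alternatives). In metastasis 2, 15 of 20 Ccl2 UMIs came from 1 cell.

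Ccl12 in cluster 12 stood at 1381 and 474 CPM in naive brains against 1406 and 245 CPM with metastases, so the brains differed more within a condition than between conditions. The log2 fold change was -0.29 ± 0.54 with an adjusted p of 0.745. Ccl7 stood at 297 and 134 CPM against 0 and 825 CPM, with a log2 fold change of 0.69 ± 0.81 and an adjusted p of 0.593. Both depended on metastasis 1 and 2. Without metastasis 1, Ccl12 had a log2 fold change of -2.15 (adjusted p = 0.00257) and Ccl7 of 1.68 (adjusted p = 0.00511), and without metastasis 2, Ccl7 was at 0 in the one brain with metastases that was left (adjusted p = 0.00335). Ccr2 (7, 4, 7 and 1 UMIs) and Ccl8 (1, 0, 0 and 0 UMIs) were too low to test.

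The cells of cluster 12 were not alike between conditions. Cells with at most 2 neutrophil and at most 2 monocyte marker UMIs numbered 50 (naive 1), 25 (naive 2), 11 (metastasis 1) and 10 (metastasis 2). In these cells Ccl12 stood at 1659 and 620 CPM in the naive brains against 241 and 692 CPM, Ccl2 at 165 and 192 CPM against 80.5 and 432 CPM, and Ccl7 at 342 and 64.1 CPM against no UMI. In metastasis 1, 50 of the 53 Ccl12 UMIs and 20 of the 21 Ccl2 UMIs lay in 15 cells with more than 2 monocyte marker UMIs. Microglia markers Tmem119 and Cx3cr1 fell in cluster 12 as a whole, with log2 fold changes of -2.30 (adjusted p = 0.00224) and -1.58 (adjusted p = 0.0278).

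The change of Ccl2 in cluster 12 was also set against its change in each of the 4 other tested clusters, with the brain as a block. The difference of the log2 fold changes (cluster 12 minus the other) was 0.72 ± 0.60 for cluster 6, -0.20 ± 0.61 for cluster 7, -2.70 ± 1.12 for cluster 9 and 0.80 ± 0.78 for cluster 11. The adjusted p-values by edgeR were 0.883, 0.935, 0.369 and 0.838, so none of the 4 differences passed. The corresponding 4 differences of Ccl7 and of Ccl12 did not pass either. Of all genes, 0.0386%, 1.66%, 0.606% and 2.26% passed these tests.

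The other genes of the pathway came from lists of ligands, receptors, NF-kB genes, interferon response genes and immediate early genes. Of the 26 other chemokine ligands, 4 were tested in cluster 6 and 1 fell: Cxcl12, the ligand of Cxcr4, with TMM-scaled levels of 340 and 454 CPM against 124 and 101 CPM (log2 fold change -1.80 ± 0.29, adjusted p = 0.0104 by edgeR). In clusters 7 and 9, 1 ligand each was tested and did not pass. In cluster 12, 1 of 7 rose: Cxcl10, the interferon-induced ligand of Cxcr3, from 26.9 and 95.6 CPM to 607 and 1218 CPM on that scale (log2 fold change 3.94 ± 0.59, adjusted p = 0.00224). Of the 2 receptors tested there, Cx3cr1, the fractalkine receptor, fell.

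All interferon response genes that passed the low-count filter rose in clusters 9 and 12. In cluster 9, 5 of the 5 tested genes rose (of 12 in the list), among them Ifit1 (log2 fold change 3.79), Isg15 (3.48), Irf7 (2.98) and Ifit3 (4.01), with a median of 3.79 against -0.0015 over all genes tested. In cluster 12, 3 of 3 rose, namely Isg15 (3.03), Cxcl10 and Ifit1, which had no naive UMI and stood at 249.7 and 419.8 CPM on the scaled levels. Of all genes tested, 3.83% rose in cluster 9, and 18 of 989 rose in cluster 12. The filter can keep a gene on the UMIs of 1 condition alone, as it did Ifit1 in cluster 12. The counts and the median therefore describe only the genes kept, and the rest of the list was not tested. In cluster 6, 1 of 7 rose (Ifit3, 1.70), and in clusters 7 and 11 0 of 4 and 0 of 1 passed.

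Of the list of NF-kB and inflammatory genes, 2 of 5 fell in cluster 6, Nfkbiz (-2.25) and Nfkbia (-0.91), and 1 of 4 rose in cluster 7, Rela (1.67). None passed in clusters 9, 11 and 12, where 2, 2 and 4 were tested. Immediate early genes, which tissue dissociation can induce, fell in 9 of 10 cases in cluster 6, 8 of 9 in cluster 11 and 6 of 9 in cluster 12. Fos fell in these 3 clusters, with log2 fold changes of -1.75, -3.25 and -1.42. In cluster 7, where Ccl2 rose, Fos (-1.46) and Egr1 (-1.61) fell and Ier3 (1.24) rose among 9 tested, and in cluster 9, 0 of 8 passed by edgeR. In cluster 12 the whole list stood at 22059 and 24329 CPM in naive brains against 10982 and 7734 CPM with metastases, beside the levels of Ccl2, Ccl7 and Ccl12 in that cluster, and its part in those levels was not tested.

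The genes most like each member were ranked by Pearson's r of log2(CPM + 10) over 24 sums (12 clusters in 2 brains with metastases) and 12477 genes. The sums share brains, the 1 run and the depth of their clusters, so r is a description. Ccl2 was most like Ccl7 (r = 0.883), followed by Gch1, Arl11, Cebpb and Npc2. Ccl7 was most like Tmem106a (0.889), Ctsb, Ccl2, Slc11a1 and Slpi. Ccl8 was most like Siglec1 (0.953), Pf4, Arg1, Gdf3 and Tlr13. Ccl12 was most like Dpep2 (0.975), Clec4e, Igsf6, F10 and C1qc. Ccr2 was most like Ptprc (0.995), the gene of CD45, and Fgr, Cd300a, Ly6c2 and Ncf4. Among the members themselves, r was lowest between Ccl2 and Ccl8 (0.546) and highest between Ccl12 and Ccr2 (0.889).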

How the data were processed

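RNA and surface tags of pooled brain suspensions were read from the same droplets. The deposited tables hold raw UMI counts per gene and cell, raw tag counts, and the authors' mitochondrial percent, cluster number and hashing call per cell. Per the submitters' processing notes, Cell Ranger 3.0.2, Seurat 3.0.1 and the build mm10 were used, with settings not given in the sources used here. All deposited cells were kept (at least 500 UMIs each).

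The members, lists and tests were chosen with earlier results of these data known. UMIs were summed per brain and cluster and tested with edgeR 4.0.16 (R 4.3.3; TMM, filterByExpr, quasi-likelihood, Benjamini-Hochberg over all genes tested at 0.05), in clusters with at least 20 cells in every brain. edgeR was tested on simulated data. Of genes changed 4-fold it recovered 38.3% in cluster 7, 26.1% in cluster 6, 2.38% in cluster 9, 0% in cluster 11 and 58.7% in cluster 12. Of genes changed 2-fold it recovered 1.18% in cluster 7, 4.94% in cluster 12 and 0% in clusters 6, 9 and 11. CPM were not scaled further, except where TMM is named. A count of 0 was taken to allow 3 counts, and 95% intervals cover counting error only. Thinned shares are expected values. Doublets were called with Scrublet in scanpy 1.11.5 (220 cells, 1.77%) and kept. Sub-clusters used 2000 variable genes, 25 principal components and 15 neighbours. The named genes are the 5 members, the 5 most like each member, and up to 4 genes per list and cluster by smallest p. Alternatives were other scaling, filters, tools, cell choices, thinning depths, resolutions and leaving out each brain.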

Additional observations from a re-analysis of the deposited data

How the results depend on the processing

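Of the values of the main results under an alternative, 127 kept their direction and side of the threshold or stayed near the main value, 52 moved beyond that, 12 reversed, 3 lost their call and 2 gained one. Naive cells were few or shallow in most clusters, which limits their counts. No paired analysis was possible because the GEO samples are RNA, surface tag and hashing libraries of 1 pool and the brains carry no shared replicate numbers. Cells without a Krt8 UMI and the settings of the cluster comparisons were chosen after seeing the data. Unless given, the cause was not tested.

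Without a low-count filter, the log2 fold change of Ccl7 in cluster 6 was 0.092, those of Ccl2 and Ccl7 in cluster 10 were 0.46 and 0.30, and the difference of Ccl2 between clusters 12 and 11 was -0.045. With DESeq2, Ccl2 in cluster 10 was 0.21, and Ccl2 in cluster 7 was 1.77, no longer past the threshold. In cells without a Krt8 UMI, Ccl12 in cluster 12 was 0.30.

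Leaving out 1 brain at a time, where the gene could still be fitted, the log2 fold change of Ccl2 ran from -0.23 to 1.51 in cluster 6, 1.28 to 2.32 in cluster 7, 2.98 to 7.26 in cluster 9, -0.074 to 0.49 in cluster 10, 0.0056 to 1.95 in cluster 11 and 0.56 to 1.45 in cluster 12. Ccl7 ran from -0.33 to 0.39 in cluster 6 and from -7.11 to 1.68 in cluster 12, and Ccl12 from -2.07 to 7.20 in cluster 1 and from -2.15 to 0.51 in cluster 12. The differences of Ccl2 between cluster 12 and another ran from -1.01 to 1.27 for cluster 11, -0.23 to 0.99 for cluster 6, -1.48 to 0.089 for cluster 7 and -5.87 to -1.35 for cluster 9. For Ccl2 in clusters 9 and 10, Ccl7 in cluster 6 and Ccl12 in cluster 1 only the 2 naive brains could be left out, and for Ccl2 in cluster 11 metastasis 1 could not. A lone brain of a condition was assumed to vary like the others.

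Counts of genes past 0.05 by edgeR were 344 in cluster 6, 1856 in cluster 7, 149 in cluster 9, 422 in cluster 11 and 58 in cluster 12. In cells without a Krt8 UMI, with fewer genes tested, they were 2 in cluster 6, 110 in cluster 7, 17 in cluster 9 and 10 in cluster 12. With DESeq2 they were 201, 755, 65, 216 and 30 in clusters 6, 7, 9, 11 and 12. Without a low-count filter cluster 6 had 0 by edgeR (1428 at an unadjusted p under 0.05, and 201 by DESeq2) and cluster 12 had 97. Without called doublets cluster 9 had 48. With at most 2 neutrophil marker UMIs cluster 12 had 110, and with at most 2 monocyte marker UMIs as well it had 35. Leaving out each brain gave 51 to 391 in cluster 6, 1188 to 1988 in cluster 7, 4 to 96 in cluster 9, 0 to 376 in cluster 11 and 0 to 216 in cluster 12.

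Mean Ccl12 in cluster 2 was 444 CPM without called doublets and 371 CPM as a mean over cells, and mean Ccl2 in cluster 12 was 423 CPM as a mean over cells. Mean co-detection ratios at 500 and 2000 UMIs were 2.11 and 1.35 for Ccl2 with Ccl7, 1.82 and 1.24 for Ccl2 with Ccl12, and 2.38 and 1.48 for Ccl7 with Ccl12. Ccl2 with Ccl7 was 1.74 unthinned. Unthinned ratios with Ccr2 were 1.18 for Ccl2, 1.13 for Ccl7 and 1.14 for Ccl12. Ccl7 with Ccr2 was 0.908 at 500 UMIs and 0.893 without doublets, and Ccl12 with Ccr2 was 0.955 at 2000 UMIs. With 1 CPM added, 3, 3, 2, 1 and 2 of the 5 genes most like Ccl2, Ccl7, Ccl8, Ccl12 and Ccr2 were shared. At resolution 0.5 the monocyte-like sub-cluster had 97.6 CPM of Ccl7 and 34.4 CPM of Ccl12, and the microglia-like one 256 CPM of Ccl2, 378 CPM of Ccl12 and 131 CPM of Ccr2.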
